A study of Mus musculus with 24 samples.

Results

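Collagens are the extracellular proteins whose chains wind into triple helices, and each chain is encoded by its own gene. The genes described here were chosen by name: every protein-coding mouse gene whose symbol has the form of a collagen chain (Col, a number, a, a number) in the GENCODE M21 annotation. There are 44 such genes among the 35968 genes of the tables, comprising 11 fibrillar chains, 8 basement membrane chains and 25 others. Of the 44, 34 had enough counts to be tested. The naming rule uses no measured value, but the members and classes were chosen with earlier results of these data known.

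Polyadenylated RNA was sequenced from C2C12, a mouse myoblast line, kept undifferentiated and below confluence and harvested 48 hours after siRNA transfection. Cells of the siCont group received a non-targeting control siRNA, those of siKeap1 and siFem1b were given the siRNA for the gene in the name, and those of siFem1b/Keap1 received both; each of the 4 groups has 3 libraries, sequenced in 2 runs. Keap1 encodes the adaptor through which a cullin ligase marks the transcription factor Nrf2 for degradation, and Fem1b encodes the substrate receptor of another cullin ligase. Each target was lowered with 1 siRNA sequence, and the labels do not say whether the 3 libraries of a group came from separate cultures, so the spread on which the p-values rest is that between libraries and may be technical.

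Fibrillar collagens (types I, III, V, XI and relatives) form long cables that give tissue its tensile strength, and in muscle they are mostly laid down by fibroblasts of the connective tissue. Type IV collagen forms a flexible network in the basement membrane that surrounds each muscle fibre, and type VI collagen forms beaded filaments that link that membrane to the fibrils outside it. Each chain is built on a repeat in which glycine returns at intervals of 3 residues, which is what lets the chains wind round each other. The following stretches of coding sequence, 30 codons each, are shown to let the repeat be read: those of type I are from the start of the longest unbroken run in each chain, those of type IV from the end of it. They run 5′ to 3′ on the coding strand of the GENCODE transcript with the highest TPM, and capitals mark the glycine codons. In Col1a1 (codons 168 to 197) and Col1a2 (codons 97 to 126) a glycine codon stood at regular intervals of 3 codons throughout, while the stretches of Col4a1 (codons 148 to 177) and Col4a2 (codons 960 to 989) each span breaks in that register:
Col1a1: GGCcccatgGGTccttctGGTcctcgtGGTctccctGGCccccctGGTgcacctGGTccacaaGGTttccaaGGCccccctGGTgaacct
Col1a2: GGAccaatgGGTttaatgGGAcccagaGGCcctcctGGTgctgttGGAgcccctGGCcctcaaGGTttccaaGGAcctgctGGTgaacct
Col4a1: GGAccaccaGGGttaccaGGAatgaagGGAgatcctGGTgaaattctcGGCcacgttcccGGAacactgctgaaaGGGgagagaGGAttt
Col4a2: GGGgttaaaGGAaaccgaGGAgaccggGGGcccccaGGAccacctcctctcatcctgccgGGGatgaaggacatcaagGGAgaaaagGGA

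The longest unbroken run of glycine triplets was 338 in Col1a1, 339 in Col1a2 and 344 in Col3a1. Over all 11 fibrillar chains the longest run lay between 216 and 344 triplets. In Col4a1 the longest run was 40 triplets, and the repeat was split into 22 runs of at least 5 triplets; in Col4a2 these values were 66 and 24. Col6a1 and Col6a2, the shorter chains of type VI collagen, each had a longest run of 87 triplets.

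Levels are given in CPM (the counts of a gene scaled to a common library total, with TMM factors) when a gene is compared between groups, and in TPM (which also divide by transcript length) when genes are compared with each other. Library totals ran from 31.9 to 43.0 M estimated counts. Keap1 averaged 61.8 CPM in siCont, 9.99 with siKeap1, 59.2 with siFem1b and 9.38 with both siRNAs, and Fem1b averaged 96.9, 102, 13.2 and 12.7 CPM in the same order. Summed over 7 genes, the myoblast markers (Myod1, Des, Cdh15 and others) lay between 1726 and 1745 CPM in siCont, 1468 and 1576 with siKeap1, 2125 and 2258 with siFem1b, and 1811 and 1863 with both. Of the 7, 0 were higher and 4 lower with siKeap1, 7 higher and 0 lower with siFem1b, and 4 higher and 3 lower with both. Over all tested genes, 18.4% were higher and 23.8% lower with siKeap1, 30.0% and 32.1% with siFem1b, and 33.8% and 33.7% with both.

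In these myoblasts, Col3a1 had the highest TPM of all collagen genes in siCont, at 463, followed by Col1a2 at 353 and Col6a3 at 246. Col5a2 (139 TPM), Col18a1 (122 TPM), Col5a1 and Col4a1 (97.7 TPM for the latter, the pair within their spread of each other) and Col4a2 (69.9 TPM) came next. Col1a1 and Col6a1 had like levels, at 47.1 and 45.8 TPM. Summed over all 44 genes, collagen TPM was 1820 ± 64.3 (SD, n = 3) in siCont, 1481 ± 30.1 with siKeap1, 2583 ± 72.6 with siFem1b and 2341 ± 42.9 with both siRNAs. The 3 siKeap1 libraries lay below, and the 6 libraries that received siFem1b lay above, every siCont library, as did the summed myoblast markers, whose part in this was not tested. In bulk RNA of this kind, fewer cells making a transcript and less of it per cell cannot be told apart.

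With siKeap1, 7 of the 34 tested collagen genes were higher and 10 lower than in siCont at an adjusted p under 0.05 (edgeR quasi-likelihood test with Benjamini-Hochberg adjustment over 14577 genes). That is 17 of 34, where 42.2% of all tested genes were called, 18.4% higher and 23.8% lower. With siFem1b, 19 were higher and 7 lower, against 62.1% of all tested genes called, 30.0% higher and 32.1% lower. With both siRNAs, 20 were higher and 6 lower, against 67.5% of all tested genes called, 33.8% higher and 33.7% lower. With a change of at least 1.5-fold also required, 5 were higher and 3 lower with siKeap1 (10.1% of all tested genes called), 17 and 1 with siFem1b (21.1%) and 16 and 1 with both (29.4%). The median log2 fold change of the tested collagens was 0.02 with siKeap1, 0.79 with siFem1b and 0.69 with both, where the median of all tested genes was -0.02, -0.01 and 0.01. When library totals alone set the scale, the median of all genes moved by 0.10 with siFem1b and 0.12 with both siRNAs; the share of calls that were higher went from 48.3% to 60.6% and from 50.1% to 62.1% over all genes, and the collagen calls became 21 higher and 6 lower, and 22 higher and 4 lower.

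Higher and lower calls divided differently by level. Of the 18 collagens with a mean of at least 5 CPM over the 12 libraries, 8 were higher and 7 lower with siFem1b, and 11 were higher and 6 lower with both siRNAs. Among all 10211 genes at that level, 28.6% were higher and 42.9% lower with siFem1b, and 31.8% and 44.7% with both. Of the 16 tested collagens below 5 CPM, 11 were higher and 0 lower with siFem1b and 9 higher and 0 lower with both. Among all 4366 genes at that low level, 33.2% were higher and 6.76% lower with siFem1b, and 38.8% and 7.79% with both. The median log2 fold change of the 18 was 0.07 with siFem1b and 0.27 with both, against -0.07 and -0.08 for all genes at that level. For the 16 low collagens it was 1.24 and 1.22, against 0.30 and 0.37 for all low genes. A gene that is low in siCont enters the test only if it is high enough in some group. Counts and medians over low genes therefore describe those that passed and not all 44, and single calls among them share this limit.

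**Figure D1:**
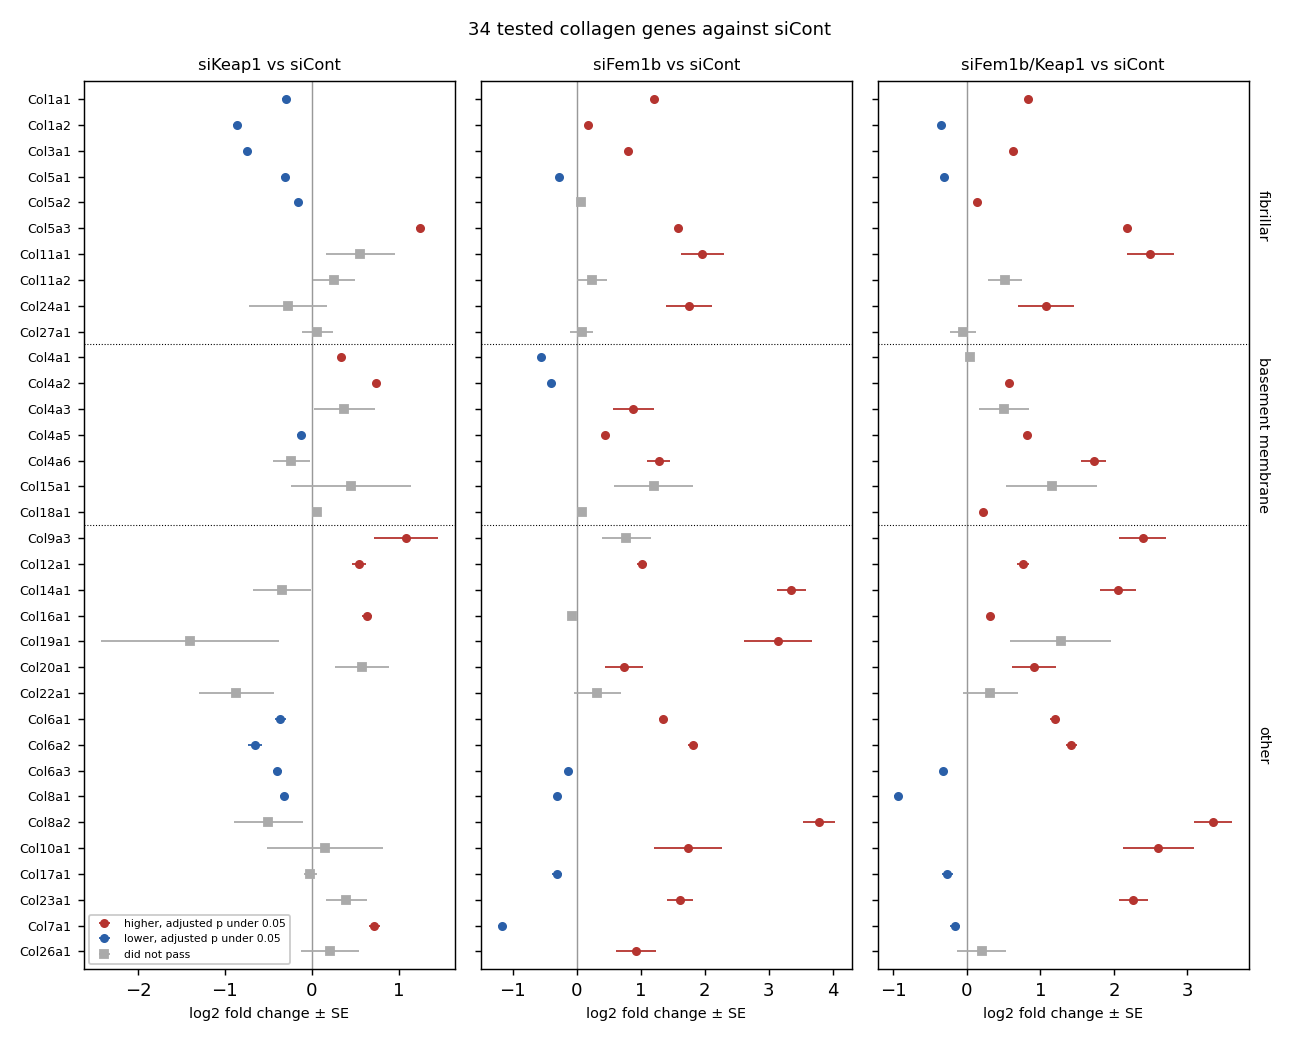
Log2 fold change against siCont (axis in log2 units) of the tested collagen genes, by class, for siKeap1, siFem1b and siFem1b/Keap1, with bars for the standard error of the edgeR fit. Col5a3 lay above 0 in all 3 comparisons (1.24, 1.58 and 2.17), Col1a1 lay below 0 with siKeap1 (-0.30) and above it with siFem1b (1.21), and Col8a1 lay below 0 in all 3.

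Type I collagen, the trimer of a pair of Col1a1 chains and a Col1a2 chain that makes up most fibrils, changed in opposite directions with the separate siRNAs. Col1a1 (chr11:94936224-94953042, plus strand, GRCm38) measured 198, 197 and 187 CPM in the siCont libraries, 153, 157 and 163 with siKeap1, 470, 415 and 456 with siFem1b, and 362, 324 and 351 with both. The siKeap1 libraries were lowest, the siFem1b libraries highest, and no groups overlapped. With siKeap1, Col1a1 fell by 0.30 on the log2 scale (standard error, SE, 0.05, adjusted p = 8.4e-05), and rose 2.31-fold with siFem1b, a log2 change of 1.21 (SE 0.05, adjusted p = 3.2e-13). With both siRNAs it rose by 0.84 (adjusted p = 2.7e-11).

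Col1a2 (chr6:4504814-4541544, plus strand) measured 1304, 1298 and 1236 CPM in siCont, 703, 701 and 703 with siKeap1, 1473, 1393 and 1487 with siFem1b, and 1029, 967 and 1007 with both. The groups kept apart here too, but the libraries with both siRNAs lay below siCont rather than above it. The log2 change was -0.87 with siKeap1 (SE 0.04, adjusted p = 1.9e-12), 0.18 with siFem1b (SE 0.04, adjusted p = 0.00043) and -0.35 with both (adjusted p = 1.4e-07). Col1a1 and Col1a2, partners in a trimer, therefore lay on opposite sides of siCont when both targets were lowered.

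Col3a1, the chain of type III collagen that forms thin fibrils with type I, measured 1631, 1659 and 1666 CPM in siCont and 1026, 987 and 952 with siKeap1. It measured 2792, 2911 and 2900 CPM with siFem1b and 2556, 2564 and 2504 with both siRNAs. The siKeap1 libraries were lowest and the siFem1b libraries highest, without overlap. Col3a1 (chr1:45311538-45349706, plus strand) had a log2 change of -0.74 with siKeap1 (SE 0.04, adjusted p = 1.1e-11), rose 1.74-fold with siFem1b (log2 change 0.80, adjusted p = 1.7e-12) and rose by 0.62 with both (adjusted p = 3.1e-11).

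**Figure D2:**
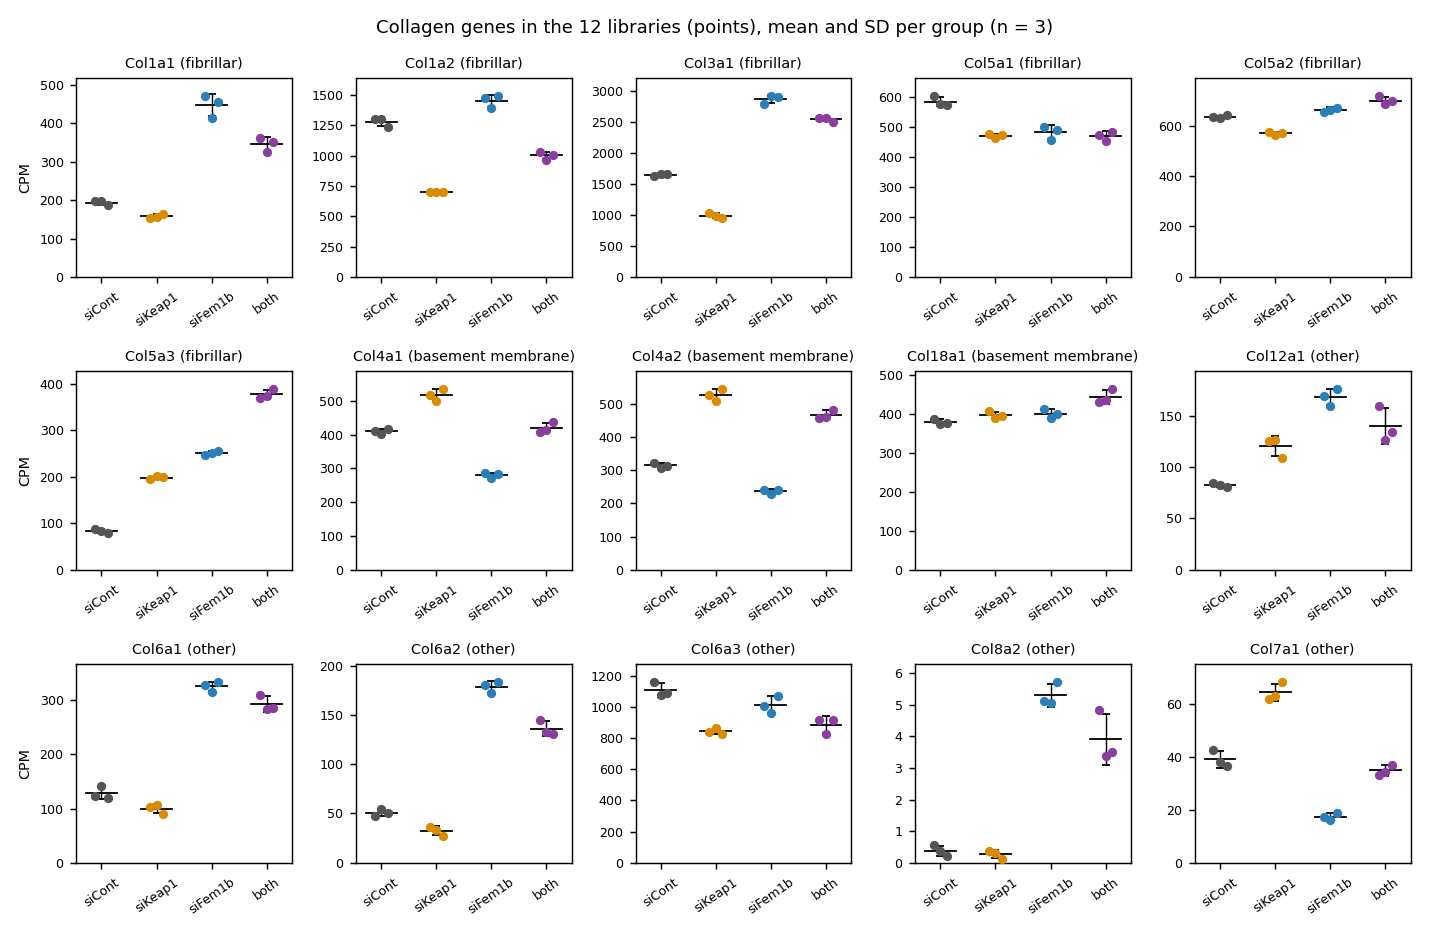
CPM (linear axes from 0) of 15 collagen genes, 1 panel each; points are the 12 libraries by group (both is siFem1b/Keap1), horizontal lines group means and error bars the SD (n = 3). Col3a1 spans 952 to 2911 CPM with separate groups, and Col5a3 climbs from 80.0 to 87.1 CPM in siCont to between 371 and 388 with both siRNAs.

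Type V collagen is a minor partner of type I that sets fibril diameter, and its chains moved apart. Col5a3 (chr9:20770050-20815067, minus strand) measured 87.1, 84.1 and 80.0 CPM in siCont, 195, 201 and 199 with siKeap1, 247, 251 and 255 with siFem1b, and 371, 374 and 388 with both. Every siRNA group lay above siCont, and the libraries with both siRNAs lay above all others. Col5a3 rose by 1.24 on the log2 scale with siKeap1 (SE 0.04, adjusted p = 7.6e-15), 3.00-fold with siFem1b (log2 change 1.58, adjusted p = 3.4e-16) and 4.51-fold with both (log2 change 2.17, adjusted p = 9.2e-18). It was the only fibrillar chain higher with siKeap1, where 5 of the 10 tested fibrillar chains were lower, against 23.8% of all tested genes.

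Col5a1 measured 600, 576 and 571 CPM in siCont, 474, 463 and 472 with siKeap1, 498, 454 and 490 with siFem1b, and 473, 452 and 483 with both. All 9 libraries with a targeting siRNA lay below siCont, and the 3 treated groups overlapped. Col5a1 fell by 0.31 (adjusted p = 4.8e-06), 0.28 (adjusted p = 8.1e-06) and 0.31 (adjusted p = 1.4e-06) on the log2 scale. Col5a2, its usual partner chain, measured 632, 628 and 640 CPM in siCont, 575, 561 and 570 with siKeap1, 652, 663 and 671 with siFem1b, and 715, 684 and 696 with both. These differences were small but without overlap: Col5a2 fell by 0.15 with siKeap1 (adjusted p = 0.001), differed by 0.06 with siFem1b (adjusted p = 0.11) and rose by 0.14 with both (adjusted p = 0.001).

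The remaining fibrillar chains were rare. Col11a1 and Col24a1, named here after their values were seen, averaged 0.202 and 0.282 CPM in siCont and rose with siFem1b by 1.96 (adjusted p = 4.8e-05) and 1.75 (adjusted p = 0.0003) on the log2 scale, to 0.791 and 0.976 CPM. With both siRNAs Col24a1 rose by 1.08 (adjusted p = 0.018), and this call was lost without siCont replicate 2 (0.89, adjusted p = 0.069) and without siFem1b/Keap1 replicates 2 (1.00, adjusted p = 0.058) or 3 (0.93, adjusted p = 0.068). Col11a2 (1.14 CPM in siCont) and Col27a1 (1.41 CPM in siCont) passed in none of the 3 comparisons. Col2a1, the main cartilage chain, had 62 counts over all 12 libraries and was not tested. Over the 10 tested fibrillar chains, the counts higher and lower were 1 and 5 with siKeap1, 6 and 1 with siFem1b, and 6 and 2 with both. For all tested genes the shares higher and lower were 18.4% and 23.8%, 30.0% and 32.1%, and 33.8% and 33.7%.

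Summed by class, fibrillar TPM was 1121 ± 30.2 (SD, n = 3) in siCont, 764 ± 11.4 with siKeap1, 1758 ± 40.0 with siFem1b and 1491 ± 33.6 with both siRNAs. These are 0.681, 1.57 and 1.33 times siCont, with no overlap with the siCont libraries (exact permutation test, 2-sided, p = 0.1 for each, the smallest that 3 against 3 allows). Basement membrane TPM was 303 ± 14.6 in siCont, 378 ± 11.2 with siKeap1, 288 ± 9.16 with siFem1b and 392 ± 10.2 with both. It was 1.25 and 1.29 times siCont in the groups given siKeap1, and with siFem1b alone its libraries overlapped those of siCont (exact permutation p = 0.3). The fibrillar share of collagen TPM was 61.6% in siCont, 51.6% with siKeap1, 68.1% with siFem1b and 63.7% with both, while the basement membrane share was 16.6%, 25.5%, 11.2% and 16.7%. The share with both siRNAs overlapped siCont for basement membrane chains (exact permutation p = 0.9). Of 36 such comparisons of sums, shares and ratios, 31 reached 0.1, which is 0.116 after Benjamini-Hochberg adjustment, so that none passed 0.05.

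**Figure D3:**
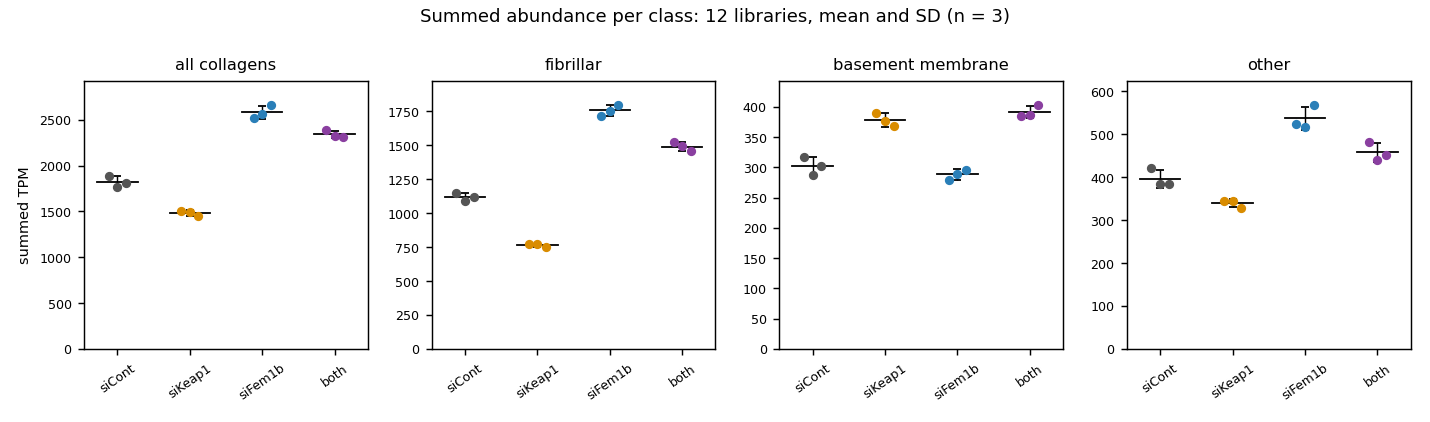
Summed TPM of fibrillar, basement membrane and other collagen chains in each library and of all collagens together (linear axes from 0); points are libraries, horizontal lines group means and error bars the SD (n = 3). Fibrillar TPM averaged 764 with siKeap1 and 1758 with siFem1b on either side of 1121 in siCont, and basement membrane TPM averaged 378 with siKeap1 and 392 with both siRNAs, above 303 in siCont.

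The main basement membrane chains, Col4a1 and Col4a2, combine into the type IV trimer found in nearly every tissue, and they rose with siKeap1 and fell with siFem1b, the reverse of type I. Col4a1 measured 412, 401 and 416 CPM in siCont, 517, 500 and 534 with siKeap1, 286, 271 and 282 with siFem1b, and 408, 415 and 438 with both. Groups were separate except that the libraries with both siRNAs overlapped siCont. Col4a1 rose by 0.34 on the log2 scale with siKeap1 (SE 0.04, adjusted p = 9.9e-07), fell by 0.55 with siFem1b (SE 0.04, adjusted p = 5.3e-10) and differed by 0.04 with both (adjusted p = 0.43).

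Col4a2 measured 322, 307 and 313 CPM in siCont, 527, 507 and 543 with siKeap1, 239, 230 and 241 with siFem1b, and 456, 461 and 482 with both. No groups overlapped, and the libraries with both siRNAs lay nearer to siKeap1 than to siFem1b. Col4a2 rose by 0.74 with siKeap1 (SE 0.04, adjusted p = 1.7e-11), fell by 0.41 with siFem1b (SE 0.04, adjusted p = 3.2e-08) and rose by 0.57 with both (adjusted p = 1.8e-10). Col4a1 and Col4a2 lie head to head on chromosome 8 with an overlap of 22 bases, and the log2 change of Col4a2 exceeded that of Col4a1 in all 3 comparisons (0.74 against 0.34, -0.41 against -0.55, and 0.57 against 0.04).

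Of the minor type IV chains, Col4a5 was the most abundant and is named after its values were seen. It measured 53.1, 51.7 and 52.0 CPM in siCont, 48.7, 47.7 and 47.4 with siKeap1, 68.4, 76.0 and 69.1 with siFem1b, and 92.6, 92.5 and 91.5 with both. Libraries given siFem1b were higher than the rest, those with both siRNAs highest. Col4a5 rose by 0.44 with siFem1b (adjusted p = 4e-08) and by 0.82 with both (adjusted p = 4.4e-12). With siKeap1 it differed by -0.13 (adjusted p = 0.027), a call lost without siCont replicates 1 or 3, siKeap1 replicates 2 or 3, siFem1b replicate 3 or siFem1b/Keap1 replicates 1 or 3 (changes between -0.13 and -0.10, adjusted p between 0.051 and 0.1). Col4a6, which lies head to head with Col4a5 at a gap of 1308 bases, averaged 0.708 CPM in siCont, 1.72 with siFem1b and 2.34 with both, log2 changes of 1.28 (adjusted p = 4.5e-06) and 1.72 (adjusted p = 4.8e-08).

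Col4a3, at 0.369 CPM in siCont, was called higher with siFem1b (0.89, adjusted p = 0.025), but not without siCont replicate 1 (0.59, adjusted p = 0.13), siCont replicate 2 (0.75, adjusted p = 0.085), siFem1b replicate 1 (0.87, adjusted p = 0.055) or siFem1b replicate 2 (0.81, adjusted p = 0.065). Col18a1, the heparan sulfate carrying chain whose end fragment is endostatin, measured 388, 374 and 377 CPM in siCont, 407, 391 and 395 with siKeap1, 414, 389 and 399 with siFem1b, and 430, 437 and 463 with both. Only the libraries with both siRNAs passed the test against siCont, with a rise of 0.22 (adjusted p = 4.3e-05); the log2 change was 0.07 (adjusted p = 0.19) with siKeap1 and 0.08 (adjusted p = 0.091) with siFem1b. Col15a1 averaged 0.107 CPM in siCont and passed in none. Col4a4 was not tested. Of the 7 tested basement membrane chains, 2 were higher and 1 lower with siKeap1, 3 higher and 2 lower with siFem1b, and 4 higher and 0 lower with both. In the same order, 42.2%, 62.1% and 67.5% of all tested genes were called, so these few calls do not set the class apart.

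The letters TGACNNNGC, the core of the antioxidant response element to which Nrf2 binds with a small Maf partner, were searched on both strands of RefSeq promoter windows of 300 bases (250 before to 50 after the gene start, GRCm38.p6). They stood in 7 of 38 collagen windows, which cover 35 of the genes, or 18.4%, and in 12.4% of all 32851 windows. The windows below are those of the 3 tested collagens above 5 CPM that hold the letters, shown because 2 of them rose with siKeap1 and 1 fell. Each runs 5′ to 3′ on the gene's strand with the matching letters in capitals: Col4a2 at chr8:11312721-11312749 (plus strand, within an exon of Col4a1), Col7a1 at chr9:108953436-108953464 (plus strand, in no exon) and Col6a2 at chr10:76623458-76623486 (minus strand, within an exon of Col6a2).
Col4a2: ccgggtgcggTGACTCTGCgcagagacct
Col7a1: tcttgggaccTGACCTTGCccttaagtgc
Col6a2: ccccacccgcTGACCCCGCccatccgcgg

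With siKeap1, the log2 changes of these 3 genes were 0.74 for Col4a2, 0.72 for Col7a1 and -0.65 for Col6a2. Col6a2 has another window, chr10:76623581-76623880, at the start of its coding transcript with the highest TPM, and that window held no match. Col5a3, with the largest rise of the abundant chains, had no match in its window. Of other letters searched, the GC box GGGCGG stood in 60.5% of collagen windows and 35.7% of all windows, CCAAT in 34.2% and 37.4%, and TATAAA in 13.2% and 13.6%. A match describes letters and is not a binding site.

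Type VI collagen is built from Col6a1, Col6a2 and Col6a3 chains, all needed for its assembly, and all 3 fell with siKeap1, whereas Col6a1 and Col6a2 rose in both groups given siFem1b and the long Col6a3 chain did not. Col6a1 (chr10:76708792-76726168, minus strand) measured 123, 141 and 120 CPM in siCont, 102, 107 and 90.2 with siKeap1, 328, 315 and 333 with siFem1b, and 309, 284 and 286 with both. All 6 libraries given siFem1b lay above all 6 others. Col6a1 fell by 0.36 with siKeap1 (SE 0.07, adjusted p = 0.00033) and rose 2.54-fold with siFem1b (log2 change 1.34, adjusted p = 6e-11) and by 1.19 on the log2 scale with both (adjusted p = 1.5e-10).

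Col6a2 (chr10:76595762-76623630, minus strand) measured 47.9, 54.6 and 50.1 CPM in siCont, 36.4, 33.2 and 27.5 with siKeap1, 180, 172 and 183 with siFem1b, and 144, 133 and 131 with both. It was ordered as Col6a1 was, with wider steps between groups and no overlap. Col6a2 fell by 0.65 with siKeap1 (SE 0.08, adjusted p = 1.8e-05), rose 3.50-fold with siFem1b (log2 change 1.81, adjusted p = 9.2e-11) and rose by 1.42 with both (adjusted p = 7.7e-10).

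Col6a3 measured 1157, 1078 and 1089 CPM in siCont, 840, 862 and 826 with siKeap1, 1007, 962 and 1071 with siFem1b, and 916, 823 and 919 with both. All treated libraries lay below every siCont library. Col6a3 fell by 0.40 with siKeap1 (adjusted p = 2.1e-06) and by 0.32 with both (adjusted p = 8.2e-06). The difference of -0.13 with siFem1b (adjusted p = 0.026) was lost without siCont replicate 1 (-0.10, adjusted p = 0.11), siFem1b replicate 1 (-0.13, adjusted p = 0.056), siFem1b replicate 2 (-0.08, adjusted p = 0.15) or siFem1b/Keap1 replicate 3 (-0.11, adjusted p = 0.053). Between 25.1% and 30.3% of Col6a3 TPM, by group mean, was assigned to a coding fragment of 476 bases, which raises its TPM relative to its counts. The other type VI genes, Col6a4, Col6a5 and Col6a6, had 57, 18 and 14 counts over all libraries and were not tested.

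Chains that share a trimer were compared by their TPM ratio in each library. The ratio of Col1a1 to Col1a2 was 0.130, 0.136 and 0.135 in siCont and averaged 0.134 ± 0.00337 (SD, n = 3), 0.205 ± 0.00511 with siKeap1, 0.271 ± 0.0111 with siFem1b and 0.307 ± 0.00721 with both. It stood above siCont in every treated library, by 1.54, 2.03 and 2.30 times, and Col1a1 lay below Col1a2 in all 12 libraries. The ratio of Col4a1 to Col4a2 averaged 1.40 in siCont, 1.08 with siKeap1, 1.29 with siFem1b (overlapping siCont, exact permutation p = 0.2) and 0.968 with both. The ratio of Col5a1 to Col5a2 averaged 0.707, 0.636, 0.547 and 0.515 in the same order, without overlap with siCont.

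For type VI collagen, the ratio of Col6a1 to Col6a2 averaged 2.52 in siCont, 3.08 with siKeap1, 1.80 with siFem1b and 2.12 with both. The ratio of Col6a3 to Col6a1 averaged 5.38 in siCont and 5.35 with siKeap1, which overlapped (exact permutation p = 0.9), against 1.94 with siFem1b and 1.80 with both. Every ratio said here to be without overlap had an exact permutation p of 0.1, the smallest possible.

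**Figure D4:**
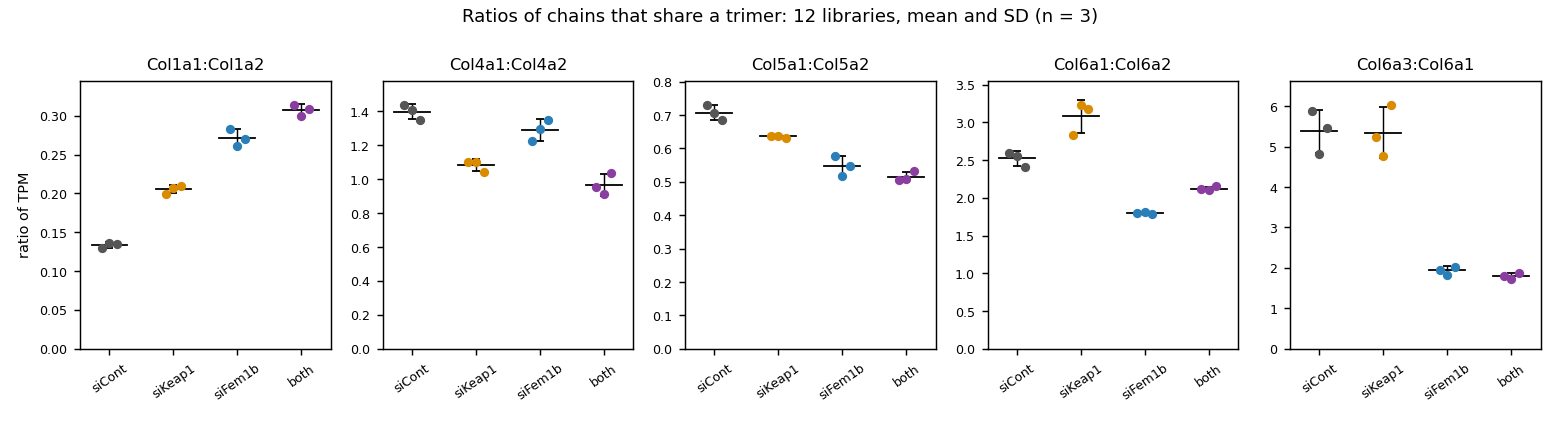
TPM ratios of chains that assemble together, on linear axes from 0; points are libraries, horizontal lines group means and error bars the SD (n = 3). Col1a1 to Col1a2 rises from 0.134 in siCont to 0.307 with both siRNAs, and Col6a3 to Col6a1 drops from 5.38 in siCont to 1.94 with siFem1b and 1.80 with both.

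Fibril-associated collagens sit on the surface of fibrils and link them to other matrix. Col12a1, whose protein is found in tendon and muscle connective tissue, measured 84.4, 82.7 and 80.8 CPM in siCont, 125, 127 and 109 with siKeap1, 169, 160 and 176 with siFem1b, and 160, 127 and 134 with both. All treated libraries lay above siCont, and those with both siRNAs overlapped siKeap1 and siFem1b. Col12a1 rose by 0.54 with siKeap1 (SE 0.08, adjusted p = 9.6e-05), 2.04-fold with siFem1b (log2 change 1.03, adjusted p = 8.6e-08) and by 0.76 with both (adjusted p = 1.3e-06).

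Col14a1 and Col16a1 are named after their values were seen. Col14a1 measured 0.209, 0.382 and 0.465 CPM in siCont, 0.312, 0.312 and 0.211 with siKeap1, 3.20, 3.79 and 3.92 with siFem1b, and 1.51, 1.67 and 1.23 with both. The libraries given siFem1b lay above all others, those given it alone highest. Col14a1 rose 10.2-fold with siFem1b (log2 change 3.35, SE 0.23, adjusted p = 2.8e-10), and by 2.06 with both (adjusted p = 6e-07). Col16a1 measured 31.5, 32.9 and 28.8 CPM in siCont and 48.4, 49.3 and 46.8 with siKeap1, a rise of 0.64 (adjusted p = 1.2e-08), and 39.6, 38.6 and 37.8 with both, a rise of 0.32 (adjusted p = 2.7e-05). With siFem1b it measured 28.8, 28.6 and 31.1 CPM and overlapped siCont. Only 42.4% of Col16a1 counts fell on protein-coding transcripts.

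Among rarer fibril-associated chains, Col19a1 rose by 3.14 on the log2 scale with siFem1b (adjusted p = 4.4e-05), from 6 counts in siCont to 58. It measured 0.467, 0.446 and 0.605 CPM with siFem1b and at most 0.180 in any other library. Col19a1 thus passed the filter only through the group where it is high, and its p-value is no independent support for the rise. Col9a3 rose by 2.39 with both siRNAs (adjusted p = 2.2e-06), from 0.171 to 0.918 CPM. Its call with siKeap1 (1.08, adjusted p = 0.025) was lost without siCont replicates 2 (1.04, adjusted p = 0.06) or 3 (1.08, adjusted p = 0.066) and without siKeap1 replicates 2 (0.92, adjusted p = 0.1) or 3 (1.02, adjusted p = 0.071). Col20a1 was called with siFem1b (0.74, adjusted p = 0.04) and with both (0.92, adjusted p = 0.011). The former was lost without siCont replicates 1 (0.78, adjusted p = 0.067) or 2 (0.50, adjusted p = 0.17) or siFem1b replicates 1 (0.55, adjusted p = 0.18) or 3 (0.75, adjusted p = 0.072), and the latter without siCont replicate 2 (0.67, adjusted p = 0.057). Col22a1 passed in none of the comparisons with siCont.

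Short-chain collagens form hexagonal networks, and the type VIII chains moved in opposite directions in both groups given siFem1b; with siKeap1 alone Col8a1 fell and Col8a2 did not pass. Col8a2 measured 0.548, 0.382 and 0.220 CPM in siCont, 0.374, 0.312 and 0.132 with siKeap1, 5.11, 5.05 and 5.70 with siFem1b, and 4.83, 3.39 and 3.49 with both. The 6 libraries given siFem1b stood apart, all above the other 6. Col8a2 (chr4:126286793-126314330, plus strand) rose 13.8-fold with siFem1b (log2 change 3.79, SE 0.25, adjusted p = 2.5e-10) and 10.2-fold with both (log2 change 3.35, adjusted p = 1.3e-09), and differed by -0.50 with siKeap1 (adjusted p = 0.35).

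Col8a1, named after its values were seen, measured 118, 114 and 123 CPM in siCont, 92.4, 93.1 and 99.5 with siKeap1, 97.8, 99.1 and 89.9 with siFem1b, and 62.6, 60.5 and 61.7 with both. The groups given 1 targeting siRNA overlapped each other, and the libraries with both siRNAs lay below all others. Col8a1 (chr16:57624258-57754737, minus strand) fell by 0.32 with siKeap1 (adjusted p = 1.4e-05), by 0.31 with siFem1b (adjusted p = 8.8e-06) and by 0.94 with both (SE 0.05, adjusted p = 1.9e-12). Col10a1, the chain of hypertrophic cartilage, averaged 0.0937 CPM in siCont and rose by 1.74 with siFem1b (adjusted p = 0.0083) and by 2.60 with both (adjusted p = 9.9e-05); the former was lost without siFem1b replicate 1 (1.35, adjusted p = 0.063). Col10a1 measured 0.223 to 0.730 CPM in libraries given siFem1b and at most 0.182 in the rest. It was tested only because of the former, so these p-values are no independent support for the rise.

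Because each target was lowered with 1 siRNA, the 3′UTRs were searched for the 7 bases complementary to positions 2 to 8 of each guide strand, the seed through which a guide can also lower other transcripts. The guides of the targeting siRNAs, each the reverse complement of the strand in the labels, are shown with the seed in capitals. Their sites in collagen 3′UTRs follow, with the match in capitals. The siFem1b match stood in 3 of 34 tested collagens (8.82%) and in 1662 of 13871 tested genes, and the siKeap1 match in 1 of 34 (2.94%) and 2.36%. The siCont match stood in 10 of 34 (29.4%) and 22.8%. Its sites are not printed. The tested collagens with it were Col1a1, Col4a2, Col6a3, Col8a1, Col8a2, Col10a1, Col15a1, Col19a1, Col23a1 and Col27a1. Col8a1 and Col23a1 thus hold a siCont match beside the match printed below.
siFem1b guide: uAAUUCUGcacugaucuuc
siKeap1 guide: uCCGUGUCaacauuggcgc
Col8a1, siFem1b match at base 569 of its 3′UTR: ggactacctagtCAGAATTgt
Col8a1, siFem1b match at base 1135: gggggaaaaaatCAGAATTac
Col4a5, siFem1b match at base 695: agtaactttgacCAGAATTtt
Col11a1, siFem1b match at base 1407: acatttgtaattCAGAATTtc
Col23a1, siKeap1 match at base 563: agaagccaccctGACACGGga

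Of the 3 genes with a siFem1b match, Col8a1 was lower with siFem1b, whereas Col4a5 and Col11a1 were higher. Col23a1, with the siKeap1 match, differed by 0.40 with siKeap1 (adjusted p = 0.19). Whether the matches bear on any of these values was not tested.

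Col7a1 encodes the anchoring fibril chain, which ties basement membrane to the matrix beneath. It measured 42.5, 38.2 and 36.5 CPM in siCont, 61.8, 63.2 and 68.2 with siKeap1, 17.3, 16.0 and 18.8 with siFem1b, and 33.1, 34.5 and 37.1 with both. The siKeap1 libraries were highest and the siFem1b libraries lowest, and those with both siRNAs overlapped siCont. Col7a1 (chr9:108953586-108984875, plus strand) rose by 0.72 with siKeap1 (SE 0.06, adjusted p = 3.8e-08) and fell by 1.17 with siFem1b (SE 0.07, adjusted p = 6.5e-11). The difference with both, -0.17 (adjusted p = 0.033), was lost without siCont replicate 1 (-0.10, adjusted p = 0.19) or siFem1b/Keap1 replicates 1 (-0.13, adjusted p = 0.14) or 2 (-0.16, adjusted p = 0.079), and was 0.026 with an offset for transcript length (adjusted p = 0.88). A retained-intron transcript of 525 bases held between 54.0% and 65.1% of Col7a1 TPM by group mean, while 92.1% of its counts fell on protein-coding transcripts.

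The transmembrane chains were low. Col17a1, a hemidesmosome chain of epithelia, measured 7.96, 7.39 and 8.17 CPM in siCont and 7.95, 7.87 and 7.48 with siKeap1, which overlapped. It fell by 0.31 with siFem1b (adjusted p = 0.0018) and by 0.27 with both (adjusted p = 0.0056). Col23a1 averaged 0.687 CPM in siCont and rose by 1.61 with siFem1b (adjusted p = 1.5e-06) and by 2.26 with both (adjusted p = 6.2e-09). Col26a1 was called with siFem1b (0.92, adjusted p = 0.016), but not without siCont replicate 3 (0.50, adjusted p = 0.085) or siFem1b replicate 3 (0.75, adjusted p = 0.081), and 22.0% of its counts fell on protein-coding transcripts. Col9a1, Col9a2, Col13a1, Col25a1 and Col28a1 had between 1 and 67 counts over all 12 libraries and were not tested. Over the 17 tested chains that are neither fibrillar nor of the basement membrane, 4 were higher and 4 lower with siKeap1, and 10 higher and 4 lower both with siFem1b and with the siRNAs together. Shares of all tested genes higher and lower were 18.4% and 23.8% with siKeap1, 30.0% and 32.1% with siFem1b, and 33.8% and 33.7% with both.

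The groups with a targeting siRNA were also compared with each other. Against siKeap1, siFem1b/Keap1 had 20 collagens higher and 6 lower, where 63.6% of all tested genes were called, 32.0% higher and 31.6% lower. The log2 changes were 2.08 for Col6a2, 1.55 for Col6a1, 1.36 for Col3a1 and 1.13 for Col1a1 among the higher, and -0.89 for Col7a1, -0.62 for Col8a1 and -0.30 for Col4a1 among the lower. Against siFem1b, siFem1b/Keap1 had 10 higher and 9 lower, where 43.1% of all tested genes were called, 21.3% higher and 21.8% lower. Here Col7a1 (1.00), Col4a2 (0.98), Col4a1 (0.59) and Col5a3 (0.59) were higher, and Col8a1 (-0.63), Col1a2 (-0.54) and Col1a1 (-0.37) lower. These comparisons share libraries with those against siCont.

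Whether the change with siKeap1 was the same with and without siFem1b was tested as the interaction of the 4 groups in the edgeR fit. It passed for 11 of 34 collagens, 7 with a positive and 4 with a negative difference, where 11.4% of all tested genes passed, 6.11% positive and 5.32% negative. For Col3a1 the change with siKeap1 was -0.74 without siFem1b and -0.17 with it, a difference of 0.57 (SE 0.05, adjusted p = 7.4e-07). For Col1a2 it was -0.87 and -0.54, a difference of 0.33 (adjusted p = 0.00044), so that the fall of both fibrillar chains was smaller when Fem1b was lowered too. Col1a1 had a difference of -0.07 (adjusted p = 0.58), a value that did not pass.

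The rise of Col5a3 with siKeap1 was 1.24 without siFem1b and 0.59 with it, a difference of -0.65 (SE 0.05, adjusted p = 1.2e-07). Col12a1 rose by 0.54 with siKeap1 alone and was 0.26 lower on the log2 scale in siFem1b/Keap1 than in siFem1b (-0.26), a difference of -0.80 (SE 0.11, adjusted p = 0.00037). That -0.26 did not pass without siFem1b replicate 3 (-0.24, adjusted p = 0.052) or siFem1b/Keap1 replicates 2 (-0.19, adjusted p = 0.053) or 3 (-0.25, adjusted p = 0.052). Col4a5 moved the other way, from -0.13 to 0.37, a difference of 0.50 (adjusted p = 1.7e-05), and the fall of Col8a1 was greater with siFem1b, -0.63 against -0.32 (difference -0.32, adjusted p = 0.0029).

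For Col4a1 and Col4a2 the rise with siKeap1 was larger with siFem1b, by 0.25 (adjusted p = 0.005) and 0.24 (adjusted p = 0.0075). Neither passed in the first sequencing runs alone (0.18, adjusted p = 0.092, and 0.19, adjusted p = 0.053), Col4a1 did not with an offset for transcript length (0.21, adjusted p = 0.17), and Col4a2 did not pass without siFem1b/Keap1 replicate 3 (0.17, adjusted p = 0.068). With a fold change of at least 1.5 also required, 0 positive and 2 negative differences passed, against 2.57% of all tested genes.

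**Figure D5:**
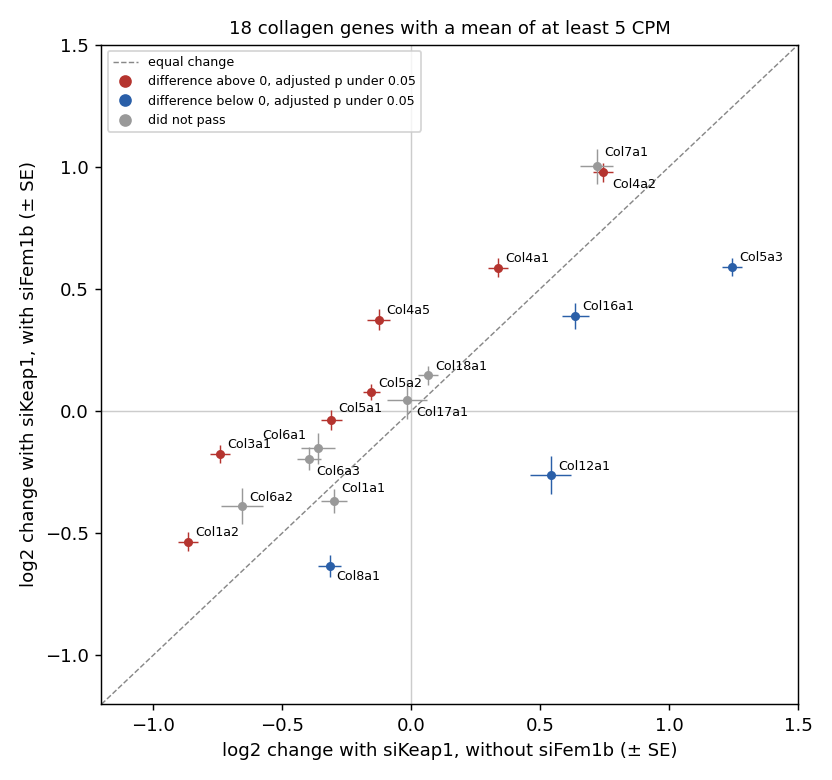
Log2 change of the 18 collagen genes with a mean of at least 5 CPM with siKeap1 in cells without siFem1b (horizontal axis) and with siFem1b (vertical axis), each point a gene with its SE, coloured by the interaction test, with a dashed line of equal change. Col5a3 lies at 1.24 and 0.59, Col3a1 at -0.74 and -0.17, and Col4a2 at 0.74 and 0.98.

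Procollagen chains are hydroxylated and glycosylated before folding, and the genes for these enzymes did not move as a block. Of 14 tested genes of 15, 1 was higher and 5 lower with siKeap1, 5 higher and 6 lower with siFem1b, and 7 higher and 6 lower with both. Beside this and the lists that follow stand the shares of all tested genes called: 42.2% with siKeap1, 62.1% with siFem1b and 67.5% with both, and several of the lists' shares lie near them. P4ha3, a prolyl hydroxylase subunit, averaged 12.2 CPM in siCont and 24.5 with siFem1b (log2 change 1.00, adjusted p = 3e-10), and P3h2, which modifies type IV collagen, went from 4.83 to 10.0 CPM (1.04, adjusted p = 8.3e-09). P4ha1, the commonest prolyl hydroxylase subunit, fell by 0.48, 0.39 and 0.65 with siKeap1, siFem1b and both. Of 10 chaperone and export genes, 3 were higher and 3 lower with siKeap1, 2 and 4 with siFem1b (where 62.1% of all tested genes were called), and 5 and 4 with both. Sec24d, a coat protein of the carriers that export procollagen, averaged 146 CPM in siCont, 215 with siKeap1 and 120 with siFem1b.

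Among 12 tested genes of 13 for procollagen proteases and crosslinking enzymes, 6 were higher and 4 lower with siKeap1, 6 and 3 with siFem1b, and 7 and 4 with both. Loxl2, which crosslinks type IV collagen, averaged 137 CPM in siCont, 51.9 with siFem1b and 57.8 with both, and fell by 1.41 and 1.25 on the log2 scale. Pcolce2, an enhancer of procollagen cleavage, rose by 0.41 with siKeap1 and fell by 0.66 with siFem1b. Loxl4 of the same list went the other way with siFem1b, averaging 28.3 CPM in siCont, 36.2 with siKeap1, 37.6 with siFem1b and 53.0 with both. Of 8 tested collagen receptors of 10, 0 were higher and 3 lower with siKeap1, 5 higher and 0 lower with siFem1b, and 4 higher and 1 lower with both, where 42.2%, 62.1% and 67.5% of all tested genes were called. The integrin subunit Itga10 averaged 1.98 CPM in siCont and 9.46 with siFem1b, a rise of 2.26 (adjusted p = 1.5e-12).

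Of 4 tested genes of 9 for collagen breakdown, 1 was higher and 2 lower with siKeap1, 4 higher and 0 lower with siFem1b, and 2 higher and 0 lower with both, against the same shares over all genes. Mmp10, a stromelysin, averaged 1.74 CPM in siCont, 31.2 with siKeap1, 2.63 with siFem1b and 14.2 with both. Of 12 genes of the TGF-beta pathway, a main inducer of fibrillar collagen, 6 were higher and 1 lower with siKeap1, 6 and 4 with siFem1b, and 6 and 5 with both, where 42.2%, 62.1% and 67.5% of all tested genes were called. The ligand Tgfb3 averaged 43.2 CPM in siCont, 32.6 with siKeap1, 80.6 with siFem1b and 62.4 with both.

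Markers of other cell states moved with the siRNAs. The 7 markers of differentiating muscle summed to between 14.1 and 17.5 CPM in siCont, 15.4 and 16.6 with siKeap1, 235 and 254 with siFem1b, and 170 and 181 with both. All 7 were higher with siFem1b and with both, where 30.0% and 33.8% of all tested genes were higher. With siKeap1, 4 were lower and 1 higher, where 23.8% of all tested genes were lower and 18.4% higher. Myl1 averaged 3.28 CPM in siCont and 0.427 with siKeap1, while Acta1 averaged 6.89 and 13.5 CPM. Acta1 also made up most of the sum with both siRNAs, at 133 CPM, against 64.4 CPM with siFem1b. The 7 fibroblast markers summed to between 156 and 159 CPM in siCont, 78.5 and 91.7 with siKeap1, 184 and 192 with siFem1b, and 103 and 112 with both. Most of that sum was Pdgfrb (147 CPM in siCont), while Dcn averaged 1.36 CPM in siCont and 17.1 with siFem1b. The 6 epithelial markers, mostly Krt14, summed to between 9.36 and 11.1 CPM in siCont and between 61.1 and 65.9 with siKeap1. Chondrocyte markers summed to between 127 and 148 CPM in siCont and 93.8 and 112 with siFem1b, nearly all of it Sox9, and osteoblast markers to between 80.2 and 86.4 and between 74.1 and 75.9, nearly all of it Runx2. Endothelial markers summed to at most 2.83 CPM and macrophage markers to at most 6.65 CPM in any library, with Adgre1 at 0. The part of these cell states in the collagen values was not tested.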

How the data were processed

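RNA-seq of 12 libraries (4 groups of 3, 2 runs each) was quantified by the authors with kallisto 0.44.0 against mm10, per the submitters' processing notes; the annotation release and strandedness are not given in the sources used here. The deposited tables give an estimated count, an effective length and TPM for each transcript. Of 118489 transcripts, 116728 (98.5%) matched GENCODE M21. Estimated counts were summed per gene and over both runs and rounded; TPM was summed per gene and averaged over runs. edgeR 4.0.16 (R 4.3.3) fitted 14577 genes that passed its default filter, with TMM factors between 0.952 and 1.04, all 12 libraries in 1 quasi-likelihood fit, and Benjamini-Hochberg adjustment over all genes. On simulated counts for siKeap1 against siCont over 14577 genes, 100 genes were changed 1.5-fold, 100 were changed 2-fold and the rest were left unchanged. Of the changed genes, 62 and 90 were recovered, with 9 false among 161 calls. In the real comparison 42.2% of all tested genes were called, so these figures may not carry over to it.

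The members, classes and lists were chosen with earlier results of these data known. Values per library are given for 12 named chains of types I, III, IV, V, VI, XII and XVIII, and for collagens changed at least 2-fold with at least 5 CPM in the higher group in a comparison with siCont; of each further list, members with the smallest p. Collagens outside that rule are marked where singled out, or given by counts and levels. Alternatives were other scalings, filters, tests (DESeq2 1.42.0, limma 3.58.1), a length offset, coding transcripts, single runs, a replicate block, thresholds and leaving out libraries. Python 3.11.15 did the rest. Glycine repeats were read from coding sequence in place of the planned protein sequences.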

Additional observations from a re-analysis of the deposited data

Results flagged for a closer look

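The change with siKeap1 differed between cells with and without siFem1b for 11 collagen genes in the interaction test (edgeR, Benjamini-Hochberg over 14577 genes). Fibrillar chains differed by 0.57 (Col3a1), 0.33 (Col1a2), 0.27 (Col5a1, adjusted p = 0.0036), 0.23 (Col5a2, adjusted p = 0.003) and -0.65 (Col5a3) on the log2 scale. The type IV chains differed by 0.25 (Col4a1), 0.24 (Col4a2) and 0.50 (Col4a5). The remaining chains differed by -0.80 (Col12a1), -0.32 (Col8a1) and -0.25 (Col16a1, adjusted p = 0.038). The Col16a1 difference was the least stable of these in the fits that left out libraries: it did not pass without siCont replicates 1 or 3, siKeap1 replicates 1 or 2, siFem1b replicate 3 or siFem1b/Keap1 replicate 2, with values between -0.26 and -0.19 and adjusted p between 0.054 and 0.11.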

How the results depend on the processing

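Leaving out any library gave 16 to 21 higher and 6 to 7 lower collagens with siFem1b, 19 to 21 and 5 to 6 with both siRNAs, 6 to 7 and 9 to 11 with siKeap1, and lost 1 to 8 of the 125 calls over all comparisons. Other settings lost more: 13 with the length offset (14 sign changes, 1 of a called value), 10 of the 108 still testable with the first run, 9 with the second, 15 at an adjusted p under 0.01 and 53 with the 1.5-fold minimum. With the replicate number as a block, the calls were 7 and 10 with siKeap1, 19 and 7 with siFem1b, 21 and 6 with both, and 7 and 3 for the interaction. Same-numbered libraries deviated together with correlations between -0.078 and 0.117, and 2 of 12 correlated best with their own number, so the numbers were not taken to pair libraries. With a filter of 5 CPM in 3 libraries, fewer genes were tested and 11 (siFem1b) and 13 (both) were higher, and 11 against siKeap1. Without a filter, 11 interaction differences were positive. Requiring a 1.5-fold change left 3, 1 and 1 lower with siKeap1, siFem1b and both, 2 lower against siKeap1, 6 higher and 3 lower against siFem1b, and 0 positive and 2 negative interactions. Col7a1 with both siRNAs became 0.026 with the length offset, and Col26a1 in siFem1b/Keap1 against siKeap1 went from -0.01 to 4.53 on coding transcripts only.

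The ratio of Col1a1 to Col1a2 was 0.130 and 0.137 by run in siCont and 0.293 and 0.322 with both, and 0.200 with siKeap1 on coding transcripts. Col4a1 to Col4a2 was 1.46 and 1.34 by run in siCont, and 1.28, 0.961, 1.16 and 0.887 on coding transcripts (siCont, siKeap1, siFem1b, both). Col5a1 to Col5a2 with siKeap1 was 0.645, and Col6a1 to Col6a2 was 2.66, 1.86 and 2.19 (siCont, siFem1b, both), on coding transcripts. With transcripts of at least 1000 bases, a choice made after seeing the data, the other collagens summed to 1.51 (siFem1b) and 1.28 (both) times siCont. Ratios were then 0.196 for Col1a1 to Col1a2 and 0.642 for Col5a1 to Col5a2 with siKeap1, 1.27, 0.957, 1.16 and 0.883 for Col4a1 to Col4a2, and 3.61, 3.52, 1.30 and 1.28 for Col6a3 to Col6a1. The cause of these shifts was not tested. Depth limits the chains below 1 CPM.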
